A study of Rattus norvegicus with 8 samples.

Results

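Among the microRNAs (miRNAs) on a rat islet array, this account describes the products of the hairpins miR-18a, miR-19a, miR-19b, miR-25, miR-92a, miR-92b and miR-363. Members were chosen by name: every non-control miRNA of the array that is a mature product of 1 of these 7 hairpin names was taken, on either arm, which gave 16 of the 677 miRNAs on the array. RNA came from pancreatic islets of Sprague Dawley rats. The adult group held 4 arrays from male rats 3 months old, and the P10 group held 4 arrays from rats 10 days old, whose sex the labels do not give. The labels describe both as control rats and each array as a biological replicate, without the number of animals behind it. Beta-cell maturation is the subject its title gives.

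A miRNA guides a silencing complex to messenger RNAs mainly through its seed, bases 2 to 8 from its 5′ end, so miRNAs with 1 seed share many predicted targets. These hairpins sit in related clusters: miR-17-92, miR-106a-363 and miR-106b-25, which are transcribed as joint precursors and are best known for promoting proliferation and survival. miR-92a is also known from endothelial cells, and the gene of miR-92b lies outside these clusters. Islet endocrine cells of young rodents divide far more than those of adults.

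The mature sequences are shown because the members fall into seed groups. They are given 5′ to 3′ as RefSeq holds them for the GRCr8 assembly, with the seed in capitals:
miR-18a-5p: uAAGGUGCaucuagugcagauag
miR-19a-3p: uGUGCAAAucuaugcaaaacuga
miR-19b-3p: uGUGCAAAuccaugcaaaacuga
miR-92a-3p: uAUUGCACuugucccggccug
miR-25-3p: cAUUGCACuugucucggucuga
miR-92b-3p: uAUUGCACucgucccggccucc
miR-363-3p: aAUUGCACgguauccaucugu

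The array uses older names without an arm, and the names were paired with these arms by convention, since probe sequences are not part of the files used here. The seed of miR-18a differed from the others and was found in no further rat miRNA of the table used. The seed of miR-19a and miR-19b was shared by those 2 only, and that of miR-25, miR-92a, miR-92b and miR-363 was shared by 5, the remaining one being miR-32. Counted from the 5′ end, miR-19a and miR-19b differed by 1 substitution (U11C) over 23 bases. From miR-92a to miR-25 there were 3 (U1C, C14U and C18U) over the 21 bases compared, and from miR-92a to miR-92b there were 2 (U10C and G21C). Signals of such close copies may include some of each other's RNA. From miR-92a to miR-363 there were 11 differences over 21 bases.

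Position sorts the members in another way. In GRCr8, miR-18a-5p lay at chr15:98588000-98588022 and miR-19a-3p at chr15:98588179-98588201, both on the plus strand. The sequence of miR-19b-3p occurred at chr15:98588486-98588508 and, on the minus strand, at chrX:137343070-137343092. That of miR-92a-3p occurred at chr15:98588602-98588622 and at chrX:137342945-137342965, so 1 probe set reads both genes of each and the array cannot tell the clusters apart there. The only position of miR-25-3p was chr12:22156652-22156673 on the minus strand, within the bounds of Mcm7, the gene of a DNA replication helicase subunit. miR-363-3p lay on chromosome X and miR-92b-3p on chromosome 2.

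Of the 16 members, 5 entered the test, listed on the array as rno-miR-18a, rno-miR-19a, rno-miR-19b, rno-miR-25 and rno-miR-92a. Entry took a signal well above background on 4 or more of the 8 arrays. The other 11 did not. Of these, 9 were the minor arms of the hairpins, which the array marks with an asterisk. None of their 22 probes was well above background on any array, with processed signals between -14.0 and 15.05 scanner units. The hairpin sequences below show where the arm that gave signal lies (capitals):
Mir18a: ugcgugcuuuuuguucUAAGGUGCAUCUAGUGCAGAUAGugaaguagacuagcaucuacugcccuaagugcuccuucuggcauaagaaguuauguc
Mir92a1: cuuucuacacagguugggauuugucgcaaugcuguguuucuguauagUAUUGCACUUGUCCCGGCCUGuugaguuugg
Mir25: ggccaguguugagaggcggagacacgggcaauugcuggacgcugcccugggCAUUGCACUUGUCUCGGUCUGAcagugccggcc

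The detected arm was the 5p arm for miR-18a and the 3p arm for the other 4, and for miR-92a the array cannot tell this hairpin from its X-linked copy. The remaining untested members were miR-92b and miR-363. miR-92b reached that mark on 0 of 8 arrays, with signals of 11.8, 14.7, 12.4 and 15.2 scanner units on adult replicates 1 to 4 and 15.1, 12.6, 13.3 and 8.53 on P10 replicates 1 to 4. miR-363 was well above background only on P10 replicate 4. Its signals were 20.5, 17.5, 22.3 and 14.9 on adult replicates 1 to 4, against 1.38, 3.87, 10.6 and 55.5 on P10 replicates 1 to 4, so the adult values lay inside the P10 range.

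Arrays differed in brightness, which bears on every value here. All 8 lay on 1 slide, whose first column held the adult samples and whose second held the P10 samples. Age and position by column therefore cannot be told apart. Each array was divided by its 75th percentile over 278 probes that were well above background on all arrays. That percentile was 1284 to 1677 scanner units on adult arrays and 388, 440, 989 and 1690 on P10 replicates 1 to 4, while the mean log2 signal of 8 spike-in probes stayed within 12.91 to 13.20 over all arrays. Scaled values are log2, so 0 is the array's own 75th percentile, and values under -5.51 were raised to that floor. The islet markers miR-375, miR-7a and miR-204 were detected on every array and all 3 were called higher in adult, with summed scaled levels of 41.3 to 47.3 in adult and 11.3 to 24.0 in P10. Of the 3 acinar markers (miR-216a, miR-216b-5p and miR-217) 0 were called, and their sum was 0.230 to 0.460 in adult, and 0.961, 0.801, 0.0807 and 0.0660 on P10 replicates 1 to 4. All 3 gut epithelium markers were called lower in adult. They summed to 0.280 to 0.508 in adult, where miR-215 was detected on none of the arrays, and to 7.27, 1.11, 13.5 and 2.37 on P10 replicates 1 to 4. Of 5 mesenchymal markers 3 were called lower and 1 higher, and both of the tested erythroid markers were called higher, while none of 4 leukocyte and 2 endothelial markers was called. Their sums in adult and in P10 were 5.10 to 7.11 and 4.27 to 7.38 for mesenchymal, 0.250 to 0.652 and 0.147 to 0.253 for erythroid, 1.24 to 1.58 and 0.721 to 3.64 for leukocyte, and 2.92 to 3.32 and 2.34 to 4.71 for endothelial markers. The mesenchymal markers called lower were miR-199a-5p (-1.75), miR-199a-3p (-1.62) and miR-214 (-1.64). The one called higher was miR-143 (0.93), the brightest of that list on every array, so the mesenchymal sum does not show the lower ones. The part of these differences in the results below was not tested. In whole islets, fewer cells of a type and less RNA per cell cannot be told apart.

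All 5 tested members were lower in adult islets than in P10 islets under this scaling. By cluster, miR-19a, miR-19b and miR-92a were 4.03- to 4.42-fold lower and miR-25, of another cluster, was 2.47-fold lower. In the fit over 238 miRNAs (limma, adult minus P10), 48 were called lower in adult, 20.2% of those tested, and 27.3% were called higher (47.5% in either direction), at a Benjamini-Hochberg adjusted p under 0.05, and the same number (20.2%) had all adult arrays below all P10 arrays. The 5 members met both rules. Their median log2 difference was -2.01, in a range of -2.14 to -1.30, beside a median of -0.01 and quartiles of -0.52 and 0.56 over all 238. Apart from miR-25, the tested members come from shared clusters, so they are not 5 independent observations.

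**Figure D1:**
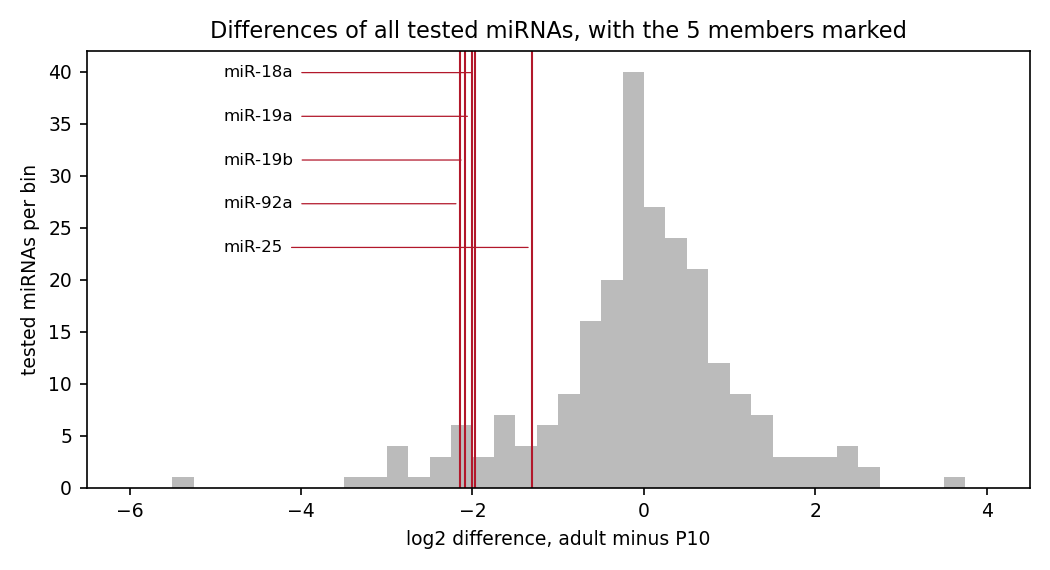
Histogram of the log2 difference (adult minus P10, x axis) of the 238 tested miRNAs, as the number per bin (y axis), with a red line at each of the 5 tested members. The lines for miR-18a, miR-19a, miR-19b and miR-92a lie between -2.14 and -1.96 and that for miR-25 at -1.30, all below the lower quartile of -0.52.

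miR-92a has the miR-25/92 seed. Its scaled log2 values were -1.40, -1.39, -1.43 and -1.80 on adult replicates 1 to 4, against 1.49, 1.34, 0.06 and -0.33 on P10 replicates 1 to 4. The adult arrays lay close together and below every P10 array, and P10 replicates 1 and 2 lay far above replicates 3 and 4. The difference was -2.14 ± 0.41 (SE, n = 4 per age), a 4.42-fold lower level in adult (limma adjusted p = 0.00343). Its second probe gave -2.41, also without overlap of the ages.

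miR-25 shares the seed of miR-92a but comes from the cluster on chromosome 12. It had -0.98, -1.05, -1.04 and -1.08 on adult replicates 1 to 4, against 0.87, 0.77, -0.19 and -0.38 on P10 replicates 1 to 4. The ages did not overlap, but P10 replicates 3 and 4 were within 1 log2 unit of the adult arrays. The difference was -1.30 ± 0.29 (SE, n = 4 per age), 2.47-fold lower in adult (limma adjusted p = 0.00752), and -1.49 on the second probe.

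miR-19b was at -0.53, -0.67, -0.67 and -0.85 on adult replicates 1 to 4, against 2.00, 1.83, 0.94 and 0.86 on P10 replicates 1 to 4. It fell by 2.08 ± 0.28 (log2, SE, n = 4 per age), 4.24-fold, with a limma adjusted p of 0.000543. miR-19a, which differs from it by a single base, was at -3.38, -3.58, -3.55 and -3.78 on adult replicates 1 to 4, against -1.11, -1.23, -1.93 and -1.98 on P10 replicates 1 to 4. It fell by 2.01 ± 0.23 (log2, SE, n = 4 per age), 4.03-fold, with a limma adjusted p of 0.000232. For both, all adult arrays were below all P10 arrays, and the second probes gave -2.19 for miR-19b and -2.09 for miR-19a. Within arrays, the log2 ratio of miR-19a over miR-19b was -2.89 ± 0.04 in adult and -2.97 ± 0.13 in P10 (SD, n = 4 each), and the ages overlapped (exact two-sided permutation p = 0.4).

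miR-18a, the only member with its seed, was near background. On P10 replicates 1 to 4 it was at -3.32, -3.37, -3.72 and -3.76, and on all 4 adult arrays it was at the floor, being well above background on 2 of them. The floor therefore limits both its size (-1.96) and its spread. With the floor lowered by 2 log2 units no array was at it: the values were -5.95, -6.42, -5.74 and -6.41 on adult replicates 1 to 4, and the difference was -2.59 ± 0.20 (SE, n = 4 per age), 6.01-fold, with a limma adjusted p of 4.34e-05. Its second probe gave -0.87 and was detected on 0 adult and 2 P10 arrays. The size for miR-18a thus rests on adult signal near background.

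**Figure D2:**
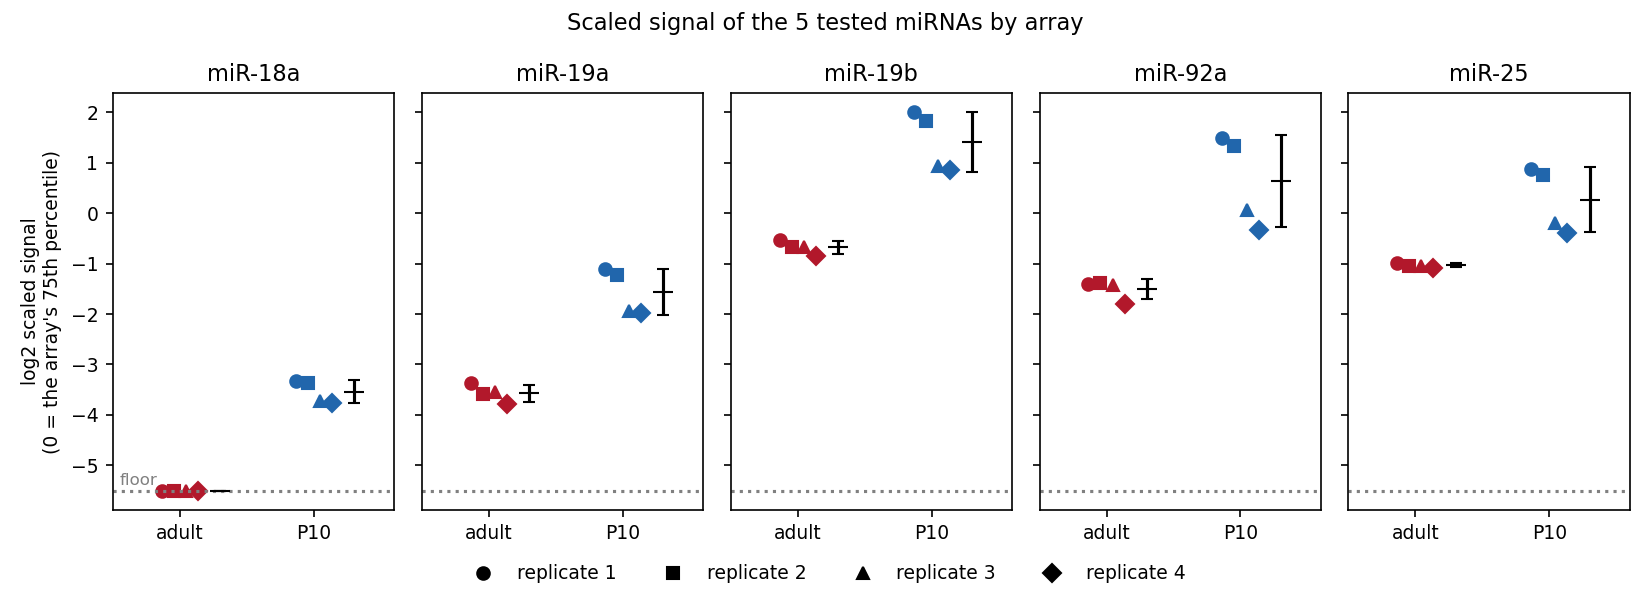
Scaled log2 signal (y axis, 0 is the array's own 75th percentile) of the 5 tested members on each array, adult left of P10, with 1 marker shape per replicate number and bars for the mean and SD of 4 arrays. Every adult point lies below every P10 point, miR-18a lies at the dotted floor of -5.51 on all adult arrays, and P10 replicates 1 and 2 lie above replicates 3 and 4.

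On scaled values the P10 arrays fell into pairs for each of the 5. The mean of P10 replicates 1 and 2 exceeded that of replicates 3 and 4 by 1.55 for miR-92a, 1.11 for miR-25, 1.02 for miR-19b, 0.79 for miR-19a and 0.39 for miR-18a on the log2 scale. Unscaled, replicates 1 and 2 lay below replicates 3 and 4 for miR-19b (1552 and 1566, against 1891 and 3064 scanner units). The same held for miR-19a (180 and 188, against 259 and 429) and miR-18a (38.8 and 42.6, against 75.1 and 125). It also held for miR-25, while for miR-92a the pairs overlapped. The order of the pairs thus depends on the scaling. P10 replicates 1 and 2 also had the lowest 75th percentiles and the highest acinar sums. Their sums were the lowest of the P10 arrays for islet markers (11.3 and 17.0, against 23.7 and 24.0 on replicates 3 and 4), mesenchymal markers (4.27 and 4.78, against 6.11 and 7.38) and endothelial markers (2.34 and 2.83, against 4.43 and 4.71). So were their leukocyte sums (1.06 and 0.721, against 1.43 and 3.64), while gut epithelium and erythroid sums did not follow the pairs. Taken singly, the islet and endothelial markers followed the pairs, as did miR-143 and miR-145 of the mesenchymal list. The other mesenchymal markers (miR-199a-5p, miR-199a-3p and miR-214) did not, and each was lowest on P10 replicate 4. No single leukocyte marker followed the pairs: miR-142-3p was at -1.67 on P10 replicate 2 and -2.07 on replicate 3. P10 replicates 1 to 4 lay in slide rows 1 to 4, so the pairs cannot be told apart from row. The part of each of these in the results was not tested. Against replicates 3 and 4 alone, a comparison chosen after seeing the data, all 5 were still called lower in adult (limma), where 21.8% of all tested miRNAs were, with differences of -1.37 for miR-92a, -0.75 for miR-25, -1.58 for miR-19b, -1.62 for miR-19a and -1.77 for miR-18a.

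Without any scaling the picture of the P10 arrays changed. miR-92a had 515, 535, 621 and 369 scanner units on adult replicates 1 to 4, against 1089, 1113, 1033 and 1347 on P10 replicates 1 to 4, so its unscaled signal varied little among P10 arrays. The P10 mean was 2.25 times the adult mean. For miR-25 the unscaled signals were 685, 679, 814 and 608 on adult replicates 1 to 4, against 711, 748, 864 and 1296 on P10 replicates 1 to 4. Those ages overlapped, and the P10 mean was 1.30 times the adult mean (exact two-sided permutation p = 0.143). For miR-19b the signals ran from 713 to 1054 in adult and from 1552 to 3064 in P10, for miR-19a from 93.4 to 143 and from 180 to 429, and for miR-18a from 15.1 to 31.5 and from 38.8 to 125. Those 3 and miR-92a did not overlap between the ages, and the same held for 7.14% of all tested miRNAs in this direction. For each of the 4 the exact permutation p (two-sided) was 0.0286, the smallest that 4 against 4 arrays allow.

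**Figure D3:**
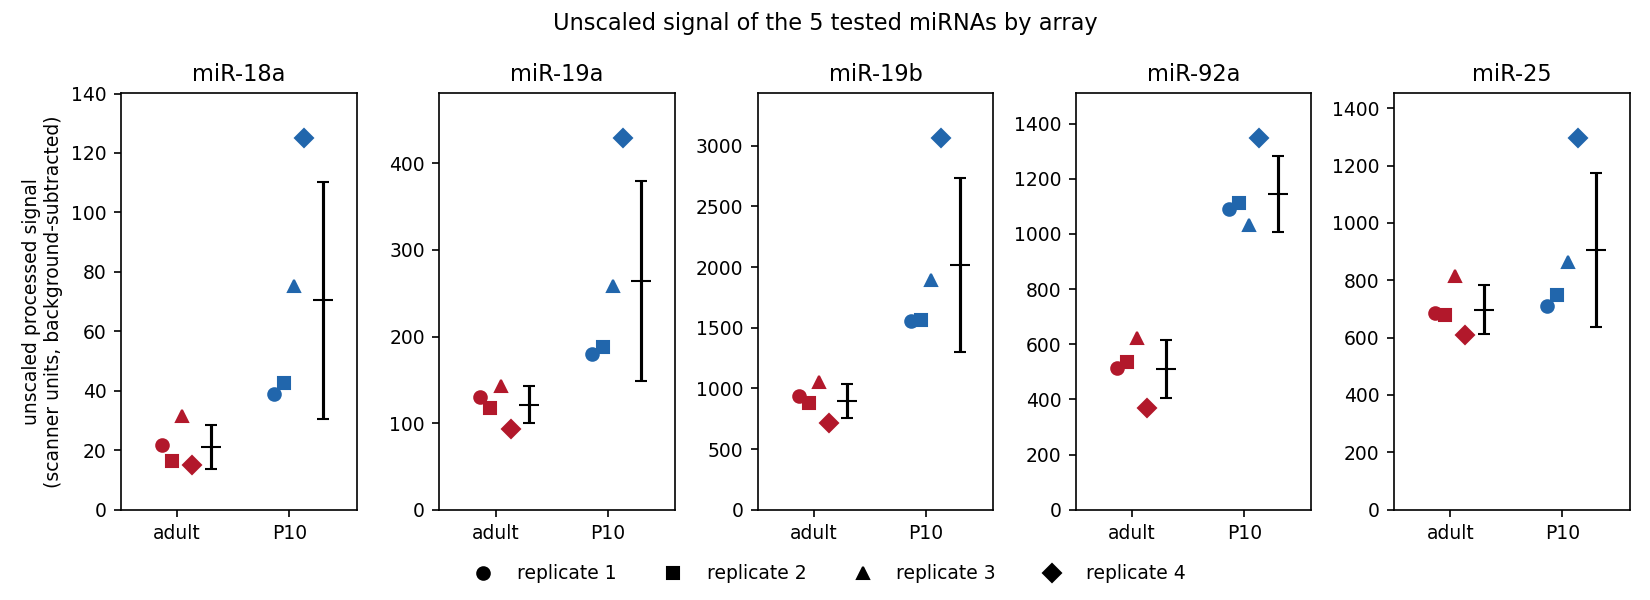
Unscaled processed signal (y axis, scanner units from 0, background-subtracted) of the 5 tested members on each array, adult left of P10, with bars for the mean and SD of 4 arrays. The ages are apart for miR-18a, miR-19a, miR-19b and miR-92a and overlap for miR-25, where adult replicate 3 (814) lies above P10 replicates 1 and 2 (711 and 748).

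The calls followed the scaling accordingly. Without scaling 4 of the 5 were called lower in adult (limma), all but miR-25 (-0.34 ± 0.30 SE, adjusted p = 0.330), where 7.14% of all tested miRNAs were called lower. With scaling on the spike-in probes only miR-92a was (-1.09 ± 0.33 SE, limma adjusted p = 0.0360), where 3.78% of all were called lower, while miR-18a (-1.25, adjusted p = 0.0569), miR-19a (-0.96, adjusted p = 0.0753), miR-19b (-1.03, adjusted p = 0.0569) and miR-25 (-0.25, adjusted p = 0.522) were not. In these settings the median of all tested miRNAs moved to 0.94 and 1.03. Relative to that median miR-92a was at -2.12 and miR-25 at -1.28 in both, beside -2.13 and -1.29 under the percentile scaling. miR-18a, whose adult values were at the floor under percentile scaling, was at -2.23 and -2.28, beside -1.95. These settings differ from the percentile scaling by 1 factor per array, which subtracting the median removes apart from values at the floor. The match for miR-92a and miR-25 was therefore fixed in advance and does not bear on the lost calls. Cyclic loess over all probes called 4 of the 5 lower, where 10.5% of all were. There miR-18a was at -0.11 (limma adjusted p = 0.926), above the median of all tested miRNAs, which was -0.51. In the authors' value table, which holds log2 values with 1 sorted set shared by all arrays, miR-92a averaged 8.31 in adult and 10.4 in P10, miR-19b 9.13 and 11.3, miR-19a 6.77 and 8.56, miR-18a 4.56 and 6.44, and miR-25 8.81 and 10.0. All 5 were called lower there, where 18.1% of all were, with a limma adjusted p of at most 0.00781. None of the alternatives run turned the sign of any of the 5 differences.

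**Figure D4:**
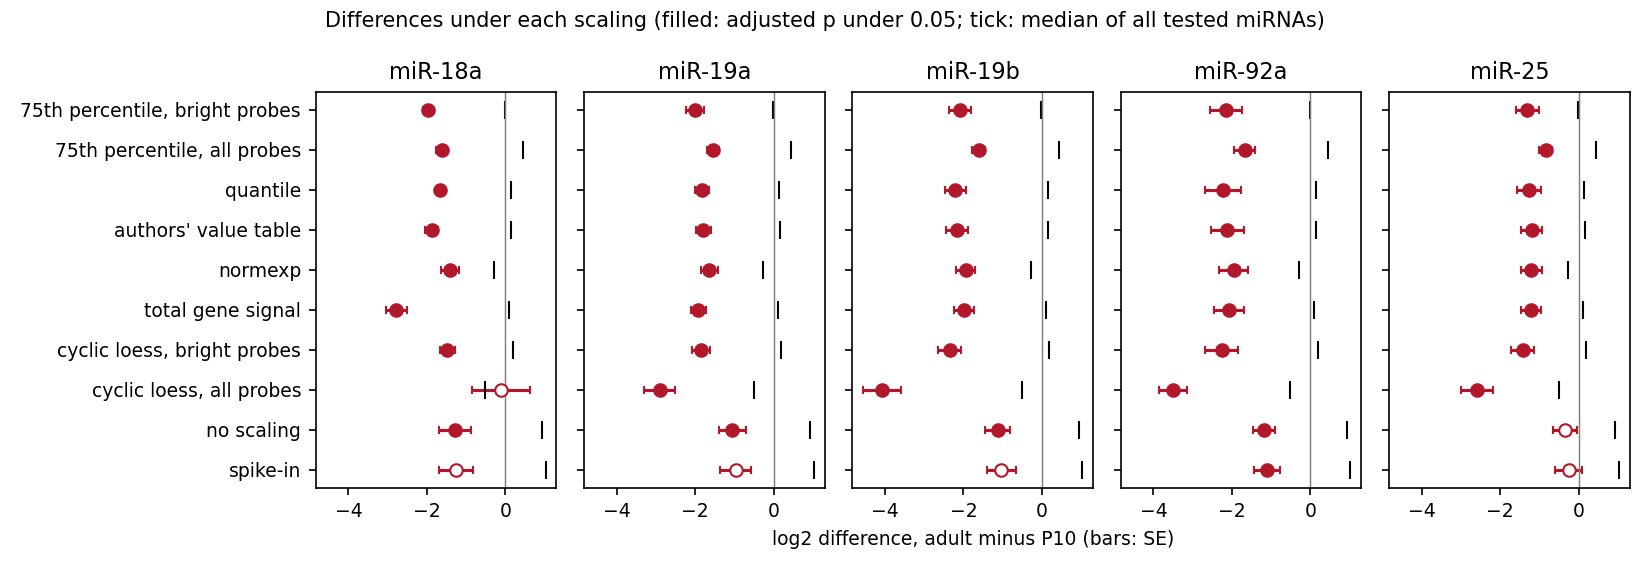
Log2 difference (adult minus P10, x axis, bars are SE) of each tested member under 10 ways of scaling or background correction (rows), filled where the limma adjusted p was under 0.05, with a black tick at the median of all tested miRNAs. All points lie left of 0. miR-25 is open without scaling, miR-18a with cyclic loess over all probes, and all but miR-92a with spike-in scaling. miR-92a is filled in every row.

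The ratio of 2 members within 1 array does not change when the whole array is divided by 1 factor, apart from values at the floor. Loess scaling, or sorted values shared by all arrays as in the authors' value table, can change it. Under the percentile scaling the ratios of miR-19a, miR-19b and miR-92a to miR-25 were lower on every adult array than on every P10 array, though none passed after adjustment. miR-92a over miR-25 was at -0.41, -0.34, -0.39 and -0.72 on adult replicates 1 to 4, against 0.61, 0.57, 0.26 and 0.06 on P10 replicates 1 to 4. miR-19b over miR-25 was at 0.36 ± 0.09 in adult and 1.14 ± 0.07 in P10 (SD, n = 4 each), with the 4 P10 arrays between 1.07 and 1.24. The adult minus P10 difference of the log2 ratio of miR-25 over miR-92a was 0.84. For the ratios over miR-25 the differences were -0.78 for miR-19b, -0.71 for miR-19a and -0.66 for miR-18a. The last rests on adult values at the floor: it was -1.28 with the floor lowered, and -0.03 with overlapping ages when all probes of a miRNA were averaged (exact two-sided permutation p = 0.914). In that average both probes of miR-18a were at the floor on every adult array. With the scanner's total gene signal per miRNA it was -1.56, with the ages apart. The ages did not overlap for these 4 pairs and overlapped for the other 6, whose differences ran from 0.05 to 0.18. Among those 6, miR-18a over miR-19a, miR-19b and miR-92a rest on the floor as well. With the floor lowered they were at -0.58, -0.50 and -0.44, with overlapping ages. With all probes averaged, again with miR-18a at the floor in adult, they were at 0.63, 0.72 and 0.86, with the ages apart for miR-19a and miR-19b. With total gene signal the sign was the other way: -0.86, -0.79 and -0.71, with the ages apart for miR-19a only. The direction for miR-18a in these 3 pairs thus depends on how its signal near background is treated. Each of the 4 pairs with miR-25 had an exact permutation p of 0.0286 (two-sided), the smallest possible, and adjusted over 10 pairs this was 0.0714, so no pair passed the threshold of 0.05. All 4 share miR-25, so they are not independent of each other. With normexp background correction 8 of 10 pairs passed (adjusted p = 0.0357), the 4 with miR-25 among them. Those 4 had the same permutation p of 0.0286 there, and passing at it depends on how many of the 10 pairs reach it. Normexp, with an offset of 50, also moved pairs without miR-25. miR-18a over miR-19b went from 0.12 to 0.53 and miR-19a over miR-19b from 0.07 to 0.31. In the authors' value table the ages were apart for 3 of the 4 pairs with miR-25, all but that of miR-18a.

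**Figure D5:**
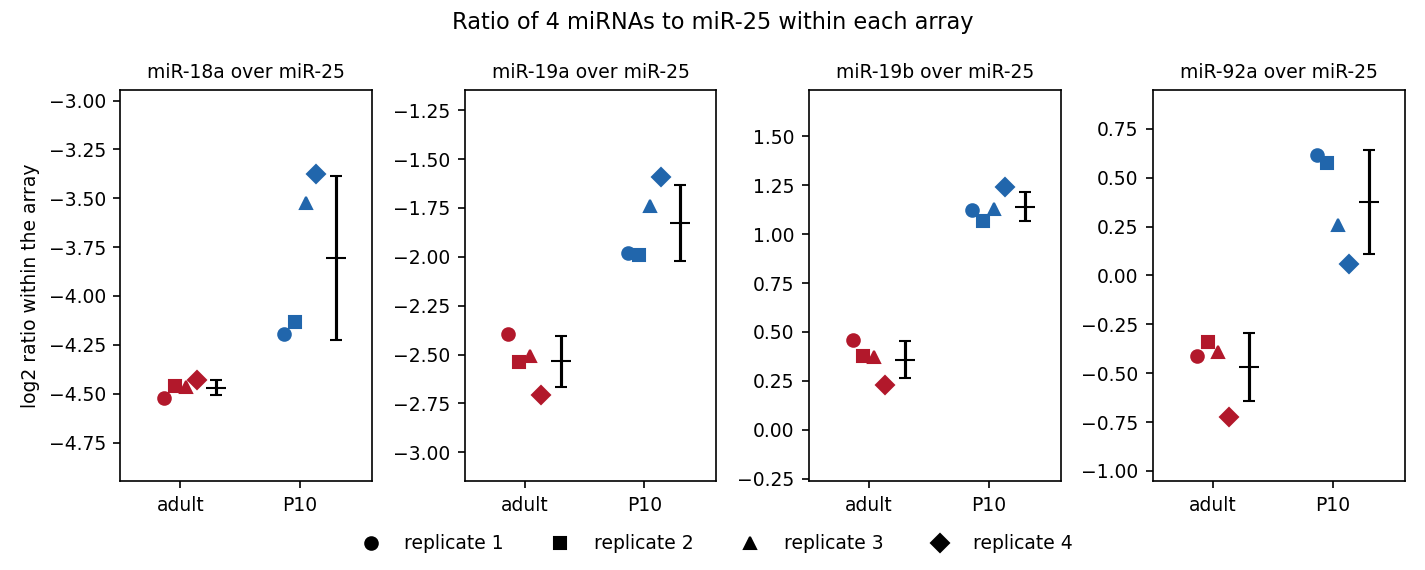
Log2 ratio of miR-18a, miR-19a, miR-19b and miR-92a to miR-25 within each array (y axis; each panel spans 2 log2 units), adult left of P10, with bars for the mean and SD of 4 arrays. In each panel the 4 adult arrays lie below the 4 P10 arrays, by 0.66 to 0.84 on average, with miR-18a at the floor on the adult arrays.

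The partners of the members in their clusters were read from a list of 14 miRNAs, chosen as further products of these hairpins' clusters or as sharing a member's seed, of which 11 had a probe under that name and 6 were tested. Of the 6, 5 were called lower in adult and 0 higher (limma), where 20.2% of all tested miRNAs were called lower, with a median of -1.93 over the 6 beside -0.01 over all tested miRNAs. By cluster, miR-20a (-2.14) belongs to miR-17-92 and miR-20b-5p (-2.16) to the X-linked cluster. The sequence of miR-17-5p (-2.45) occurs in both, so the array cannot assign it, as with miR-19b and miR-92a. In the chromosome 12 cluster miR-106b (-1.16) and miR-93 (-1.72) stood beside miR-25 (-1.30). Those 3 differences were nearer to 0 than those of the other called products of the clusters, of which there were 10 in all. That contrast between clusters was not tested. With spike-in scaling only miR-17-5p kept its call (-1.40, limma adjusted p = 0.0317), while miR-20a (-1.09, 0.0584), miR-20b-5p (-1.11, 0.0587), miR-93 (-0.67, 0.186) and miR-106b (-0.11, 0.822) did not. Without scaling miR-93 (-0.76, limma adjusted p = 0.118) and miR-106b (-0.20, 0.675) lost theirs. These 5 partners carry the seed AAAGUGC, which no member has. miR-32, which shares the seed of miR-92a and miR-25 but lies on chromosome 5 outside these clusters, was at the floor on all 4 adult arrays and at -5.03 to -5.39 in P10. Its difference of -0.27 did not pass (limma adjusted p = 0.0762), but it passed with the floor lowered (-0.81, limma adjusted p = 0.00333).

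The members resembled each other across the arrays, with Pearson correlations of 0.919 to 0.998 over 8 arrays for the 10 pairs. Among the other tested miRNAs, the 5 whose profile was most like the mean profile of the members were miR-181d (r = 0.998), miR-20a (0.995), miR-20b-5p (0.993), miR-93 (0.992) and miR-532-5p (0.992). These correlations are descriptions over 8 arrays that share 1 slide and 1 set of scale factors and fall into 2 ages, and they carry no test.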

How the data were processed

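miRNAs were measured in 8 islet RNA samples, each on a 1-colour Agilent array. Scanner intensity was extracted by Feature Extraction (Agilent, version 10.7.3.1, per the file headers), and the deposited processed signal is background-subtracted. The authors' deposited log2 table covers 311 miRNAs, and its making is not given in the sources used. Its columns hold the same sorted values (largest gap 0.00787, median 6.54) in the order of total gene signal, so direction is settled and the scaling before that is unknown.

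Features with an outlier flag (2.34% to 3.65% per array) were dropped, and none was saturated. The others were averaged per probe, scaled as the report says, floored at percentile 1 of detected probes (median over arrays) and taken to log2. Each miRNA was read from its brightest probe. The test was limma 3.58.1 (R 4.3.3), no block, with Benjamini-Hochberg adjustment over 238 miRNAs. It was also run on simulated data with independent normal errors of equal spread in both ages. Spreads on these arrays were unequal (for miR-25 an SD of 0.04 in adult and 0.65 in P10), so that run does not vouch for them. Ratios of members were compared by exact permutation (scipy 1.17.1). The tested members and tested list miRNAs are named, and the 5 most alike by Pearson correlation with the members' mean centred profile. Members, lists and alternatives were chosen with earlier results of these data known. Alternatives covered scaling, background, summary, filter, floor, variance model, weights, blocks and arrays left out. Normexp used median signals, since the files hold no mean signals. Replicate numbers were not shown to pair the ages. The p-values measure the spread between arrays, whose number limits precision. The highest correlation between arrays was 0.997, and the lowest was 0.988 within adult and 0.859 within P10. P10 replicates 1 and 2 had 188 and 198 miRNAs well above background. P10 replicates 3 and 4 had 238 and 231, and adult arrays 218 to 248.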

Additional observations from a re-analysis of the deposited data

Results flagged for a closer look

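miR-92a on adult replicate 4 stood apart from the other adult arrays, at a scaled log2 value of -1.80 beside -1.43 to -1.39. Without that array its difference was -2.05 and it was still called lower (limma adjusted p = 0.0136). miR-363 on P10 replicate 4 stood apart at 55.5 scanner units, beside 1.38 to 10.6 on the other P10 arrays, and this was the only array on which it was well above background. Both were found because the gap to the nearest array took up more of the group's range than Dixon's 95% limit, which chance passes in about 1 of 20 groups of 4.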

How the results depend on the processing

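Over 26 or 27 alternatives each, the 5 tested members kept a negative difference. miR-92a was called in 27 of 27, miR-19a and miR-19b in 26 of 27, miR-25 in 24 of 27 and miR-18a in 24 of 26. Calls were lost with spike-in scaling (all but miR-92a, leaving 1 of 5), without scaling (miR-25), without a filter (miR-25, adjusted p = 0.0517) and with loess over every probe (miR-18a, -0.11). The count of all called miRNAs was 113 and became 75 without scaling, 68 with spike-in scaling, 26 with loess over every probe, 179 with array weights and 182 against P10 replicates 1 and 2 alone. Leaving out 1 array gave 84 to 138, with all 5 members called each time. Of the called miRNAs 65 were higher and 48 lower in adult. The percentile over all probes made these 90 and 34 (median difference of all tested miRNAs 0.45), no scaling 58 and 17 (0.94), spike-in probes 59 and 9 (1.03), normexp 33 and 47 (-0.28), and loess over every probe 1 and 25 (-0.51). The cause of these shifts was not tested. The number of member pairs past the threshold was 0, and 8 with normexp background correction. It stayed 0 without any 1 array, where the smallest possible p of 0.0571 cannot pass. With the replicate number as a block 95 miRNAs and all 5 members were called. Same-numbered arrays deviated with correlations of -0.23 to 0.48, and 2 of 4 adult arrays correlated best with their own number. With slide row as a block 90 miRNAs and all 5 members were called. Signals near background limit miR-18a in adult, miR-32, miR-92b and miR-363.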
